A study of Mus musculus with 8 samples.

Results

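The islands described here are stretches of the genome where Brdt was called as enriched in spermatocytes of both genotypes and in round spermatids of neither. They were chosen by overlap between 4 deposited lists on mm9. A member is an island of the wild-type spermatocyte list, on chromosomes 2 to 13 and 15 to 19, that shares at least 1 base with an island of BD1del spermatocytes and no base with a round spermatid island of either genotype. The rule selected 1232 islands, of 22484 wild-type spermatocyte islands on these 17 chromosomes and 36615 in the whole list. An island is a run of windows of 200 bases in which ChIP reads cluster above a control library, with gaps of up to 600 bases bridged.

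Anti-Brdt ChIP-seq was made from meiotic spermatocytes and post-meiotic round spermatids of adult mice. The groups were spermatocytes whose Brdt lacks the first bromodomain (Brdt BD1del), wild-type C57BL/6 spermatocytes, BD1del round spermatids and wild-type round spermatids, with 1 ChIP and 1 input library each, 8 libraries in all. Per the labels' protocols, germ cells were fractionated on a BSA gradient, each wild-type fraction was a pool from 10 mice, and wild-type chromatin was cut with MNase to fragments of about 200 bp. For the BD1del samples the strain, the number of animals and the preparation of chromatin are not known here, nor is the age of any group beyond adult. Cell purity could not be read from these files, because island lists hold no expression of marker genes.

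Brdt is the testis-specific member of the BET family, proteins whose paired bromodomains bind acetylated lysines on histone tails. Its first bromodomain recognises histone H4 with several acetylated lysines, and the second binds acetylated histones in its own manner. In mice Brdt is needed for the meiotic and post-meiotic gene programme, and the first bromodomain is needed for the removal of histones and the compaction of the genome in spermatids. A spermatocyte is in meiotic prophase, when homologous chromosomes pair and recombine, and a round spermatid is its haploid product before compaction starts. An island found with BD1del Brdt is one where the protein was enriched without its first bromodomain.

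On the 17 chromosomes the BD1del spermatocyte list held 88738 islands, the wild-type spermatocyte list 22484, the BD1del round spermatid list 163246 and the wild-type round spermatid list 55299. ChIP reads in these islands numbered 4461473, 3147476, 5375414 and 2873055 in the same order. For 1 ChIP read the control library held 5.64 reads in BD1del spermatocytes and 1.79 in wild-type spermatocytes. The deposited fold is the authors' ratio of ChIP reads to control reads scaled by library size. A fold of at least 2 was held by 94.6% of the islands of the BD1del spermatocyte list and by 36% of those of the wild-type spermatocyte list. The fold scales of the lists thus differ. Each group had a single library, so replicate error is unknown and groups were not tested against each other. Intervals beside shares are 95% binomial intervals by the exact (Clopper-Pearson) method, which reflect counting error alone.

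Members were 5.48% of the wild-type spermatocyte islands (5.19 to 5.78%). They are part of the 5641 wild-type spermatocyte islands (25.1%) that met BD1del spermatocytes, and the rest met round spermatids too. All 4 lists held 2441 of them, both spermatocyte lists and wild-type round spermatids held 1233, and both spermatocyte lists and BD1del round spermatids held 735. Another 6377 islands, 28.4%, met no other list and are called private below. Counted as BD1del islands, 1583 met a wild-type spermatocyte island and no round spermatid island. This count is higher than the number of distinct BD1del islands paired with the members, 1228, and both counts follow different rules. A BD1del island can be clear of round spermatids while the wild-type island it meets is not. The 1228 hold only the BD1del island that shares most bases with each member, and these may meet round spermatids.

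The share of members was set beside islands moved at random by 10 to 500 kb. When all wild-type spermatocyte islands were moved, 8.87% fulfilled the rule (8.25 to 9.28% in 100 moves), so members were fewer than among moved islands. These moves also displaced the islands from the round spermatid lists. The share of moved islands that landed clear of those lists was not recorded, and its part in the difference was not tested. When the BD1del spermatocyte list alone was moved, with the other lists in place, 4.33% of the wild-type islands fulfilled the rule (4.14 to 4.63%), and members were 1.27 times as frequent as that. Among the 7609 wild-type islands clear of round spermatid islands, 16.2% were members (15.4 to 17.04%). Moved islands of the same set that again landed clear met BD1del spermatocytes in 11.7% of cases (10.6 to 12.9%), and the share was 12.8% (12.2 to 13.7%) when the BD1del list was moved. Most of the overlap that defines the members was therefore also found with displaced islands.

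Islands that also met round spermatids were shared with BD1del spermatocytes more often. Of the 14875 wild-type islands that met a round spermatid island, 29.6% met BD1del spermatocytes as well, against 22.0% for moved islands of that set that again met a round spermatid list. The ratio to moved islands was 1.38 for the members and 1.35 for these islands. The opposite set, wild-type round spermatid islands that met BD1del round spermatids and no spermatocyte island, held 6425 islands. They were 17.3% of the round spermatid islands clear of spermatocytes (16.9 to 17.7%), against 13.2% after moves. No test between these sets was made.

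By fold alone, the share lay above the range of the moves only in the islands of higher wild-type fold. The wild-type list was divided into 5 equal parts by fold, after the data were examined. In the lowest 3 parts, with folds of up to 1.92, members were 18.2, 14.9 and 13.1% of the islands clear of round spermatids, and displacing the BD1del list gave 17.4, 14.6 and 12.9%. Moving the wild-type islands instead gave 15.8, 13.4 and 12.1%. The deposited shares were above the means of both kinds of moves but within their ranges. In the next part, with folds of 1.92 to 2.68, members were 15.8%, against 11.2%. In the highest part they were 18.3% (16.6 to 20.1%), against 9.43% (7.75 to 10.97%), a ratio of 1.94. The lowest 3 parts held 632 members and the upper 2 parts 600.

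**Figure D1:**
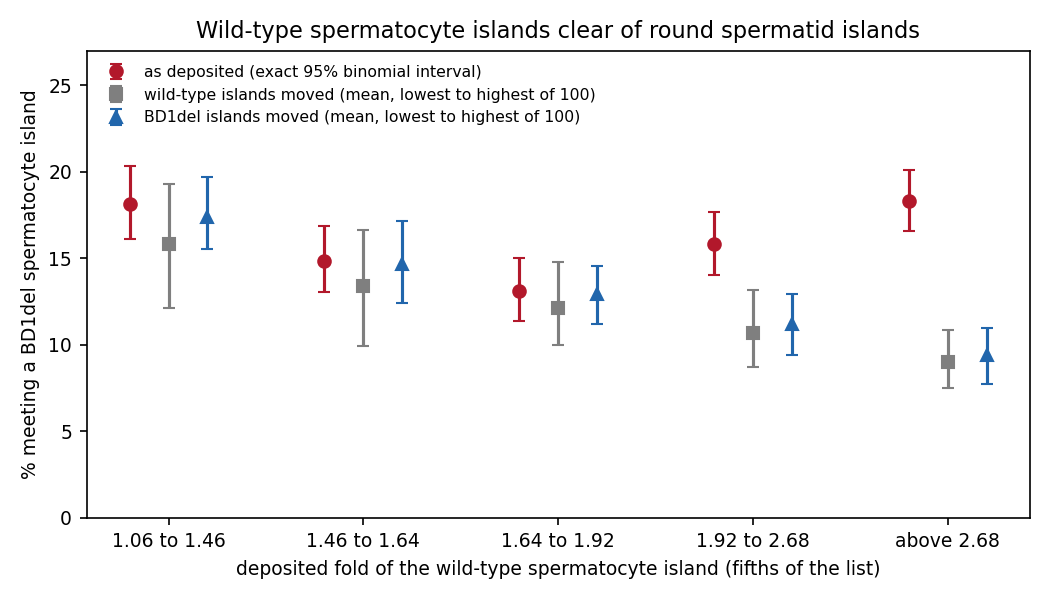
Share of wild-type spermatocyte islands clear of round spermatid islands that met a BD1del spermatocyte island (vertical axis, %), by 5 equal parts of the list ordered by wild-type deposited fold (horizontal axis). Circles are the deposited lists with exact 95% intervals, and squares and triangles are means of 100 moves with their lowest and highest value. The circles lie above the range of both kinds of moves in the upper 2 parts, at 15.8 and 18.3%. In the lower 3 they lie above both means but within both ranges.

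The ratio to moved islands was larger at higher fold limits. Among clear islands with a wild-type fold of at least 2, 566 of 3202 were members (17.7%), against 10.1% with the BD1del list moved. With a fold of at least 5 they were 159 of 796 (19.97%), against 8.38%. With a fold of at least 10 they were 59 of 267, or 22.1% (17.3 to 27.6%), against 7.58%, a ratio of 2.91. Of the wild-type islands with a fold of at least 5 that met a round spermatid list, 227 of 834 (27.2%) met BD1del spermatocytes, against 13.3% for those that were moved and again met a round spermatid list.

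A high fold went with few control reads, since control reads are its denominator. Clear islands were therefore also divided into 3 parts by wild-type control reads per kb, with limits at 34 and 46.7 per kb. Among islands with a fold of at least 2, members were 18.8, 13.8 and 15.8% from the lowest part to the highest, against 11.03, 8.29 and 7.49% with the BD1del list moved. The ratios were 1.71, 1.66 and 2.11. The division used wild-type control reads alone, which also enter the fold limit, so the part of control reads in the excess was not tested. Among islands with a fold under 2, members were 14.7, 13.7 and 17.7%, against 16.4, 15.1 and 12.5%. Those ratios were 0.896, 0.908 and 1.42. At a fold under 2 the share thus lay above the range of the moves (9.88 to 14.9%) where control reads were densest, which the division by fold alone does not show.

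The members were of ordinary size and mostly of low fold. The BD1del islands that met the members had a median length of 1600 bases, with quartiles of 1000 and 2400, against a median of 1200 in the BD1del spermatocyte list. The wild-type members themselves had a median length of 2000 bases, with quartiles of 1200 and 3200 and a range of 200 to 17400 bases. Together the members covered 2.88 Mb, of which 1.27 Mb was shared with BD1del islands. The median deposited fold was 3.69 on the BD1del side (quartiles 2.66 and 5.45) and 1.88 on the wild-type side (quartiles 1.51 and 2.98). Over the 1231 members of each genotype with a control read the range was 1.17 to 152.2 in BD1del and 1.13 to 73.3 in wild type, and 1 further member in each had no control read.

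Members had a median wild-type fold of 1.88, private islands 1.83 and islands of all 4 lists 1.64. The share with a wild-type fold of at least 5 was 12.9% of the members, 9.99% of the private islands and 3.24% of the islands of all 4 lists, where 7.25% of all wild-type spermatocyte islands reached that fold. On the BD1del side 360 of 1232 members (29.2%) met an island of at least that fold, below the 34.8% of the whole BD1del spermatocyte list. Beside other wild-type islands that met BD1del spermatocytes, the members had the highest median BD1del fold, 3.69. It was 3.35 where BD1del round spermatids were also met, 3.45 where wild-type round spermatids were, and 3.30 in islands of all 4 lists. Members had a median of 34.4 wild-type control reads per kb, private islands 35.5 and islands of all 4 lists 50.6. The fold enters the calling of islands and hence the rule, so these values are a description.

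Reads per island were modest. The BD1del islands held a median of 45.0 ChIP and 71.0 control reads, and the members a median of 76.0 ChIP and 67.0 control reads in wild type. The fewest ChIP reads were 21 in BD1del and 26 in wild type. Summed over all members, wild-type ChIP reads were 1.81 times the scaled control reads, against 1.797 for private islands and 1.85 for islands of all 4 lists. A deposited FDR of at most 1e-10 was reached by 830 members in BD1del (67.4%), 414 in wild type (33.6%) and 332 in both. In the whole wild-type spermatocyte list 6049 of 22484 islands reached it. The count for the whole BD1del spermatocyte list was not made, so the BD1del share has no background value here.

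The windows of both genotypes met more closely than displaced windows would. Of the members, 1206 met a single BD1del island and 26 met 2. The median share of a member covered by BD1del islands was 50%, against 36.8% for moved islands that met a BD1del island. Both lists started at the same base in 164 members (13.3%), against 6.70% of moved islands (4.34 to 9.38%). This was not particular to the members. In islands of all 4 lists the median share covered was 58.3%, and 19.3% had the same start. In islands of both spermatocyte lists and BD1del round spermatids these values were 50 and 12.4%. With wild-type round spermatids in their place they were 50 and 12.7%. In 32 members start and end were the same, in 249 the member was covered entirely, and in 417 the BD1del island lay inside the member. At the limit of the rule, 207 members shared exactly 1 window of 200 bases with BD1del, and 81 private islands lay next to a BD1del spermatocyte island with no base between.

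The folds of both genotypes were correlated across members. Spearman's rho between the BD1del and the wild-type fold was 0.396 over 1232 members, against a mean of 0.0288 over moved islands and their chance partners (-0.0808 to 0.114). It was 0.345 in the 2441 islands of all 4 lists, 0.444 in the 735 of both spermatocyte lists and BD1del round spermatids, and 0.199 in the 1233 of both spermatocyte lists and wild-type round spermatids. Within the members it was 0.333 at a wild-type fold of at least 2 and 0.199 under 2. Control reads per kb were correlated as well, with a rho of 0.42 across members, and ChIP reads per kb with a rho of 0.186. How much of the relation between folds comes from positions that have few control reads in both libraries was not tested. Among members with at least 10 control reads in both lists, 1144 in number, the rho of the folds was 0.356. Islands are not independent replicates, and both values of a pair share length and local sequence.

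**Figure D2:**
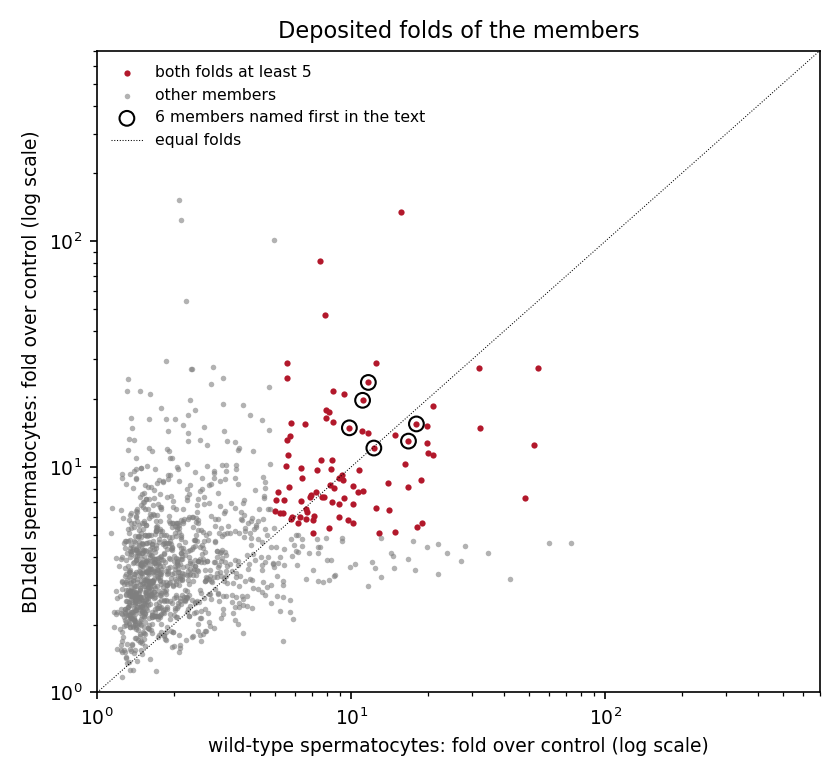
Deposited fold of each member over control in BD1del spermatocytes (vertical axis, log scale) against that in wild-type spermatocytes (horizontal axis, log scale). Members without a control read are not drawn, red points are members with both folds at least 5, rings mark the 6 named islands, and the dotted line marks equal folds. Most points lie above the line at wild-type folds under 2.

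A small group of members was strongly enriched in both genotypes. Both folds were at least 5 in 94 members (1.24% of the clear islands, 0.999 to 1.51%), against 0.267% for moved islands (0.105 to 0.459%). Both were at least 10 in 20 members. The 94 members were short, with a median of 900 bases in BD1del and 1200 in wild type, and the longest of them spanned 4000 bases in BD1del and 3400 in wild type. Their ChIP reads were dense: a median of 46.0 per kb in BD1del, against 30.0 over all members, and of 60.3 per kb in wild type, against 38.8. Their control reads were sparse, with a median of 27.5 per kb in BD1del, against 45.5 over all members, and of 10.7 per kb in wild type, against 34.4. The part of the low control reads in these folds was not tested, and 55 of the 94 had at least 10 control reads in both lists.

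The member with the highest lower fold was chromosome 4, 21774601 to 21776400, among members with at least 10 control reads in both lists. Its BD1del island began at the same base, ended at 21775800, and held 55 ChIP and 20 control reads, a fold of 15.5. The wild-type island held 101 ChIP and 10 control reads, a fold of 18.1. The nearest BD1del round spermatid island was 1600 bases away and the nearest wild-type one 64800 bases away. In both genotypes the ChIP reads outnumbered the control reads although the control libraries were deeper.

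The second was a narrow site, chromosome 12, 104793201 to 104793600, with the same start and end in both genotypes. These 400 bases held 30 ChIP and 13 control reads in BD1del, a fold of 13.01, and 94 ChIP and 10 control reads in wild type, a fold of 16.8. A wild-type round spermatid island lay only 600 bases away and the nearest BD1del round spermatid island 15400 bases away. Absence of an island at a position in the round spermatid lists is therefore not absence of enrichment from the neighbourhood.

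The third was chromosome 7, 52241801 to 52243400, with folds of 12.1 in BD1del and 12.3 in wild type, the closest match among the leading members. BD1del covered the first 600 of its 1600 bases. It lay 1200 bases from a BD1del round spermatid island and 97200 bases from a wild-type one. The BD1del reads there were 43 ChIP and 20 control, and the wild-type reads were 103 ChIP and 15 control.

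The fourth and the fifth lay on chromosome 5 and had the higher fold in BD1del, as did 1016 of all 1232 members (82.5%), on fold scales that differ. Chromosome 5, 124198801 to 124200400, had 42 ChIP and 10 control reads in BD1del, a fold of 23.7, and 98 ChIP and 15 control reads in wild type, a fold of 11.7. It was 10000 bases from the nearest round spermatid island. Chromosome 5, 138228001 to 138229400, had 35 ChIP and 10 control reads in BD1del, a fold of 19.7, and 62 ChIP and 10 control reads in wild type, a fold of 11.1, and no round spermatid island came within 18800 bases. The sixth island, chromosome 13, 100433401 to 100433800, was covered entirely by BD1del. Its folds were 14.9 in BD1del, from 37 ChIP and 14 control reads, and 9.84 in wild type, from 55 ChIP and 10 control reads.

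**Figure D3:**
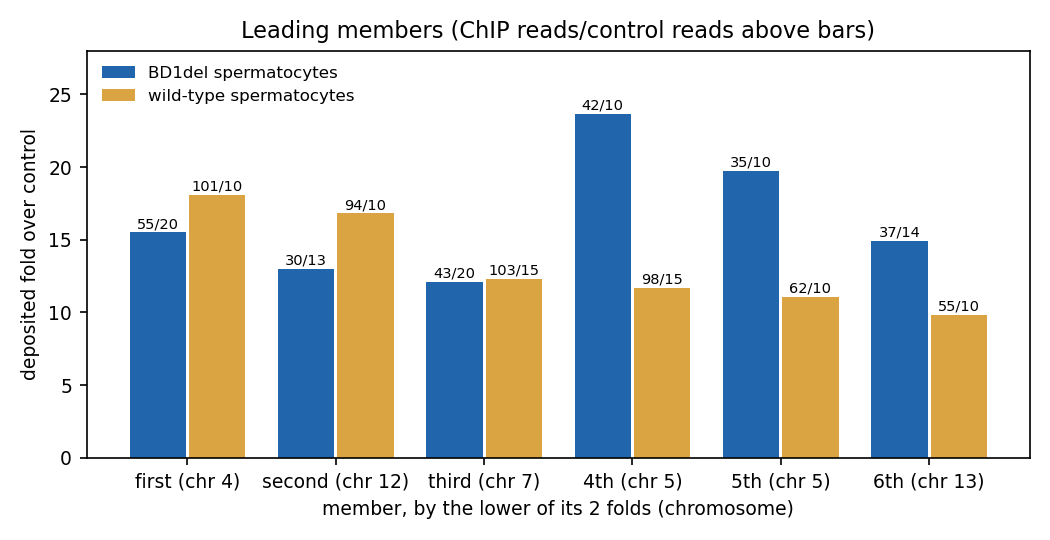
Deposited fold over control (vertical axis) of the 6 members with the highest lower fold among those with at least 10 control reads in both lists, in BD1del spermatocytes (left bar) and wild-type spermatocytes (right bar). Numbers above the bars are ChIP and control reads. The first 3 members have the higher fold in wild type, from 12.3 to 18.1, and the others in BD1del, from 14.9 to 23.7.

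The longest members were of the opposite kind in wild type, broad and close to the control. The longest was chromosome 12, 20332201 to 20349600, at 17.4 kb with a wild-type fold of 1.13 from 516 ChIP and 815 control reads. It met 2 BD1del islands that covered 12.6% of it. The one of these that shared most with it had a fold of 5.09 over 1400 bases. A round spermatid island of wild type lay 200 bases from it. The next longest, chromosome 5, 145429401 to 145440400 and 8193001 to 8202800, were covered to 9.09 and 14.3% by BD1del and had wild-type folds of 1.498 and 1.54. The BD1del islands that met them had folds of 4.61 and 4.998. Among these 3 longest members the shared stretch was at most 2200 bases long.

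Round spermatid islands lay near most members. The median distance from a member to the nearest round spermatid island was 4000 bases in the BD1del list and 10100 bases in the wild-type list. Private islands, set beside them, had medians of 4600 and 11200 bases in the same lists. In 217 members (17.6%) a round spermatid island of either list lay within 1000 bases, and in 46 it touched the member with no base between. Members were 15.9% of the 6376 clear islands without one within 1000 bases, against 16.2% of all 7609 clear islands. Nearness was thus not particular to the members. How many of all clear islands touched a round spermatid island was not counted. Just outside the rule, 252 wild-type islands met BD1del spermatocytes but shared a single window of 200 bases with the round spermatid lists. Only 12 members were more than 20 kb from any round spermatid island. The 95th percentile of that distance was 13090 bases in members and 13800 bases in private islands.

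The member farthest from any round spermatid island was chromosome 2, 175377201 to 175383000, at 36600 bases. Its wild-type fold was 1.36, and it shared 200 of its 5800 bases with a BD1del island of fold 6.22. The next was chromosome 5, 5662401 to 5665000, at 31800 bases. BD1del covered 800 of its 2600 bases, with a fold of 8.36 from 43 ChIP and 29 control reads, where the wild-type fold was 3.58 from 72 ChIP and 36 control reads. The third was chromosome 2, 171754801 to 171757200, at 27800 bases, with folds of 1.95 in BD1del and 1.34 in wild type. Of these 3 islands, 1 had folds above 2 in both genotypes. The 94 members with both folds at least 5 had a median distance of 2300 bases to the nearest BD1del round spermatid island, against 4000 bases for the other 1138. To the nearest wild-type round spermatid island their median distance was 14300 bases, against 9700 bases, so the direction differed between the round spermatid lists.

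Members occurred on each of the 17 chromosomes. Per Mb they were densest on chromosome 19, at 1.03, and on chromosome 18, at 0.911, and sparsest on chromosome 8, at 0.342. The wild-type spermatocyte list was itself dense on chromosomes 19 and 18, with 1088 islands over 58.3 Mb and 1297 over 87.8 Mb. Members were 5.51 and 6.17% of these islands, near the 5.48% of all 17 chromosomes. Chromosome 8 held 1032 wild-type spermatocyte islands over 128.7 Mb. Chromosomes 9 and 11 held 972 over 121.1 Mb and 961 over 118.8 Mb, but 0.479 and 0.589 members per Mb. Among all wild-type spermatocyte islands, members were 4.26% on chromosome 8 (3.11 to 5.68%), also the lowest share of the 17. As a share of the clear islands, members ranged from 10.7% (7.87 to 14.1%) on chromosome 8 to 20.9% (17.7 to 24.4%) on chromosome 2. Moved islands gave 10.5 to 12.8% over the chromosomes, 10.5% on chromosome 8 and 12.1% on chromosome 2. Chromosome 8 thus showed no excess over moved islands, and chromosome 2, with 123 of 588 clear islands, and chromosome 19, with 60 of 297 (20.2%), showed the highest shares. Chromosome 11 held 13 of the 94 members with both folds at least 5, at 0.109 per Mb and beside 383 clear islands. Chromosome 19 held 5, at 0.0857 per Mb. Chromosome 5 held 10, at 0.0669 per Mb and beside 550 clear islands. Chromosome 15 held 1, at 0.00995 per Mb and beside 352 clear islands. No test between chromosomes was made.

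**Figure D4:**
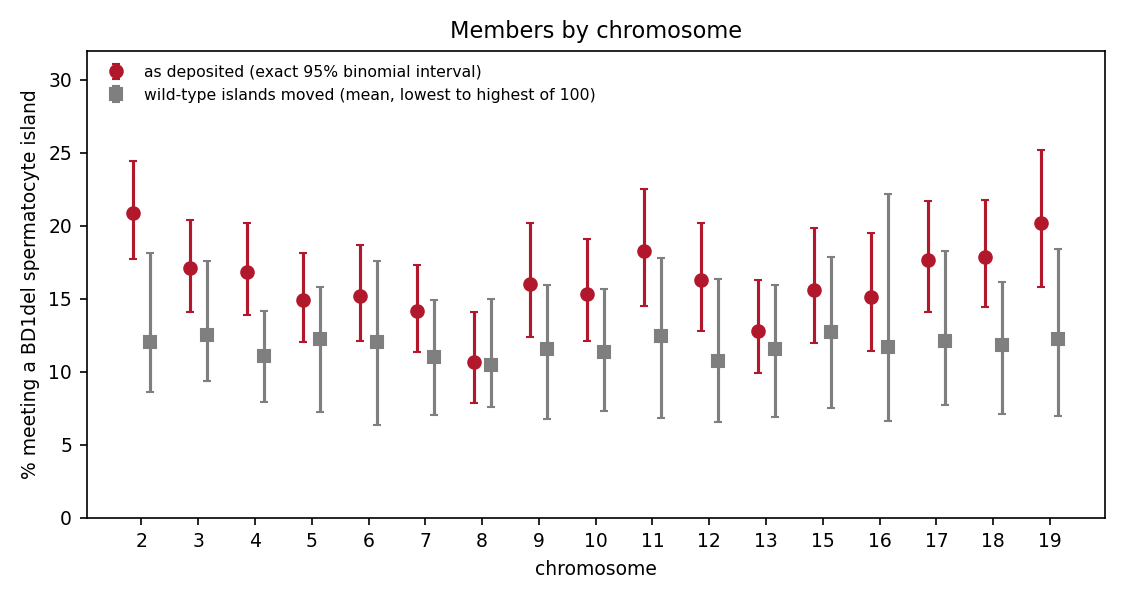
Share of wild-type spermatocyte islands clear of round spermatid islands that met a BD1del spermatocyte island (vertical axis, %) on each chromosome (horizontal axis). Circles are the deposited lists with exact 95% intervals, and squares are means of 100 moves of the wild-type islands with their lowest and highest value. The circle lies near the square on chromosome 8, at 10.7 and 10.5%, and above the range of the moves on chromosomes 2, 4, 9, 11, 18 and 19.

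Members were spread over many parts of the genome, and about as many stood alone in a bin of 1 Mb as shared one. Neighbouring members were a median of 1.08 Mb apart, and the more numerous private islands, 6377, a median of 206800 bases. At least 1 member was held by 891 of 2109 bins of 1 Mb. Of these bins, 623 held 1 member, 214 held 2, 38 held 3 and 16 held 4 or more, so 609 members shared a bin with another. The most in a bin was 5, on chromosome 2 from 153 to 154 Mb, on chromosome 12 from 104 to 105 Mb and on chromosome 17 from 35 to 36 Mb. In the same order these bins held 13, 15 and 20 wild-type spermatocyte islands. Whether members were grouped beyond the density of the wild-type list was not tested. These bins were chosen for their counts.

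The bin on chromosome 12 held the narrow site of the same start and end described above. Its other 4 members had BD1del folds of 4.48 to 11.7 and wild-type folds of 1.85 to 3.53. On chromosome 17 the bin held 2 narrow, strong members. At 35270601 to 35272200 the BD1del fold was 28.9, from 41 ChIP and 8 control reads, and the wild-type fold 5.57, from 84 ChIP and 27 control reads. At 35302001 to 35302400 they were 9.71 and 10.7, from 31 ChIP and 18 control reads in BD1del and 36 ChIP and 6 control reads in wild type. Its other 3 members were 2800 to 5600 bases long with folds of 2.24 to 2.48 in BD1del and 1.18 to 1.70 in wild type. Strong and weak members thus stood side by side in the densest bins. Genes at these positions were not analysed here, since no mm9 annotation was used.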

How the data were processed

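Anti-Brdt ChIP-seq islands of 4 libraries were used, with 1 library per list. The authors deposited SICER island summaries on mm9, per the submitters' processing notes, with windows of 200 bases and gaps of 600 bases as the list names state. Version, aligner, duplicate handling and the control library of each list: not given in the sources used here. The ChIP and control counts are whole reads per island, deposited by the authors without normalization. The p-value and FDR deposited by the authors, all under 0.01, compare both counts. The deposited fold is a ratio of ChIP to scaled control reads, and within a list it gave the same library ratio for each island with control reads. The lists of wild type name F3 tags and those of BD1del paired F3 and F5 tags, so genotype, read set and control depth cannot be told apart.

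Overlaps needed 1 shared base. Where a member met 2 BD1del islands, the one sharing most bases gave the BD1del values. Islands were moved by 10 to 500 kb in whole windows, 100 times and 20 times under alternatives, with fixed seeds, and turned round at chromosome ends. The overlap code was checked on simulated lists and against a plain double loop. Python 3.11.15, numpy 2.4.6, pandas 2.3.3 and scipy 1.17.1 were used. Named islands were the 6 members with the highest lower value of both folds and at least 10 control reads in both lists, the 3 longest and the 3 farthest from round spermatid islands. For islands at the limit of the rule, many tied values were found, and counts are given in their place. The division by fold, the division by control reads, the share of clear islands, moves of the BD1del list and densest bins were chosen after the data were examined. Members and lists were chosen with earlier results of these data known. The RefSeq tables at hand are on GRCm38, so gene context, the fixed gene lists and base composition were not analysed here.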

Additional observations from a re-analysis of the deposited data

How the results depend on the processing

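No paired analysis was possible because each group had 1 library. Leaving out a library would leave its group empty. The 10 values of the members and their moved counterparts (the number, shares, median folds, length, rho of the folds, control density and distance) were recomputed under 10 settings, and 3 of them also with BD1del islands counted or moved. Of 103 values, 50 stayed within the interval of the value reported, or for the number of members within 1.5 times. In the 10 settings and with the BD1del list moved, the share of clear islands that met BD1del spermatocytes was 1.27 to 3.94 times its moved share, and it was 1.20 times when moved islands were counted wherever they landed. The other values follow; their causes were not tested beyond what each setting does by construction.

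With all 4 lists at an FDR of at most 1e-10 there were 522 members, with a moved share of 6.52% of all and 7.64% of clear islands, median folds of 5.099 in BD1del and 3.52 in wild type, a rho of 0.297, 23.3 control reads per kb and a distance of 4000 bases. With that FDR in spermatocytes alone there were 333 members, moved shares of 5.59 and 7.102%, folds of 5.64 and 4.47, a rho of 0.237, a length of 1400 bases and 18.8 control reads per kb. With folds of at least 2 there were 611 members, 17.1% of the clear islands, with moved shares of 7.58 and 9.09%, folds of 4.396 and 3.03, a rho of 0.309, a length of 1400 bases and 25.5 control reads per kb. With each list held to 10000 islands by p there were 221 members, 4.16% of the clear islands, with moved shares of 1.05 and 1.06%, folds of 7.55 and 3.503, a rho of 0.486, 22.1 control reads per kb and a distance of 35400 bases to the thinned round spermatid lists. With at least 10 control reads the moved share of all islands was 9.34% and the distance 3600 bases. With at least 50% of the member covered there were 654 members, 8.595% of the clear islands, with moved shares of 3.097 and 4.46%, folds of 3.37 and 2.11, a rho of 0.538, a length of 1400 bases and 36.6 control reads per kb. With no round spermatid island within 1000 bases the moved share of all islands was 6.89% and the distance 3600 bases. Within 5000 bases there were 394 members, a moved share of 2.801%, a rho of 0.333 and a distance of 7600 bases. With the BD1del list alone moved, 20 moves gave 4.31% of all and 12.7% of clear islands. Counting moved islands wherever they landed gave 13.5% of clear islands.

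Whether moved islands landed more often in stretches without mapped reads was not tested. Genotype cannot be told apart from read set and control depth. Reads outside islands were not analysed here, so round spermatid enrichment below the limit of calling is unknown.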
